A study of Mus musculus with 2 samples.

Results

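Ciliary cells of the conducting airway were examined in dissociated newborn mouse lung. A cell was taken as a ciliary cell when its barcode held at least 2 unique molecular identifiers (UMIs, each counting 1 captured transcript) summed over Foxj1, Dnali1, Dnah3, Dnaic2 and Dnaaf1, and mitochondrial genes gave at most 10% of its UMIs. Of 8003 cells under the mitochondrial limit, 77 met this rule, 10 of 2388 in Batch 1 and 67 of 5615 in Batch 2. The lungs came from wild-type female C57BL/6J mice at postnatal day 1, 1 mouse per batch, and no treatment, allele or other age was compared. Whole left and right lobes were minced, digested with TrypLE and collagenase, freed of red cells by lysis and captured in droplets with barcoded beads (Drop-seq). Both batches carry the same labels, and their values were kept apart because each stands for 1 animal.

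Multiciliated cells clear mucus from the airway by beating motile cilia. Each cilium is built on a basal body, carries an axoneme of microtubule doublets around a central pair, moves by dynein arms that are assembled in the cytoplasm before transport, and is regulated by radial spokes and nexin-dynein links. In airway epithelium, cells that lower Notch signalling switch on multicilin (Mcidas), Myb and Foxj1 and multiply their centrioles, in large part on deuterosomes, whereas cells with active Notch become secretory (club) cells that make Scgb1a1.

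The genes of the rule lie on 5 loci of GRCm38. Foxj1, the forkhead transcription factor of motile ciliogenesis, is at chr11:116330704-116335399 (minus strand), and Dnali1, a light intermediate chain of axonemal dynein, at chr4:125055338-125065703 (minus strand). Dnah3, a dynein heavy chain of the inner arms, is at chr7:119922671-120095280 (minus strand), Dnaic2, an intermediate chain of the outer arms, at chr11:114727408-114757889 (plus strand), and Dnaaf1, a dynein arm assembly factor, at chr8:119575235-119598454 (plus strand). All are protein-coding genes and their exon reads were counted over the whole gene. Because these 5 genes chose the cells, their values are given as a description. Foxj1 was found in 9 of 10 ciliary cells of Batch 1 (40 UMIs) and 66 of 67 of Batch 2 (784 UMIs). Dnali1 gave 17 and 82 UMIs, Dnah3 3 and 93, Dnaic2 6 and 65, and Dnaaf1 2 and 32, so most of the selection rested on Foxj1.

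The cells around the edge of the rule were counted. In Batch 1, 2356 cells had 0 rule UMIs, 22 had 1 and 2 had 2. In Batch 2, 5491 had 0, 57 had 1 and 8 had 2. Just outside, the cells with 1 rule UMI held a median of 5.3 (Batch 1) and 7.28 (Batch 2) UMIs per 10000 from 98 other axonemal genes (dynein arms, dynein assembly, radial spokes, central pair, tektins and tubulins, and other ciliated cell genes), but 7 such cells of Batch 2 reached at least 100 per 10000. Just inside, the 8 Batch 2 cells with 2 rule UMIs ranged from 4.22 to 449.7 per 10000. Among cells with 0 rule UMIs, 2 in Batch 1 and 10 in Batch 2 also reached 100 per 10000, so some barcodes outside the rule carried axonemal transcripts at this level. Of the Batch 2 cells defined below as secretory airway cells, 10 reached it, 7 of them with a barcode 1 base from a much larger ciliary cell. Whether these barcodes were separate cells was not tested.

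The label was checked against the axonemal genes that the rule did not use and against Sox2, a transcription factor of the airway epithelium (chr3:34650405-34652461, plus strand). Axonemal genes reached at least 100 UMIs per 10000 in 8 of 10 ciliary cells of Batch 1 and 60 of 67 of Batch 2, with medians of 415.4 and 229.5 per cell. Sox2 gave 7 UMIs in 3 of 10 cells and 109 UMIs in 35 of 67. Epithelial markers summed to 33 and 40.3 UMIs per 10000, against 0.408 and 0.991 in the other lung cells.

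A few members did not carry the programme. In Batch 1, a cell chosen by 2 Dnaic2 UMIs had 3.94 axonemal UMIs per 10000 and 22 UMIs of markers of non-epithelial cells, and a cell chosen by 2 Foxj1 UMIs had 43.4 per 10000. In Batch 2, a cell with 1 Foxj1 and 1 Dnah3 UMI had 4.22 axonemal UMIs per 10000 and 664.6 Sftpc UMIs per 10000, the surfactant gene of alveolar type 2 cells. These cells were kept.

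Within the ciliary cells, Scgb1a1 (chr19:9083636-9087958, minus strand), a secretoglobin of club cells, split the cells at 100 UMIs per 10000. It was at or above that level in 1 of 10 cells of Batch 1 (10%, exact binomial 95% interval 0.253 to 44.5%) and in 39 of 67 of Batch 2 (58.2%, 45.5 to 70.2%). The values next to the limit were 22.7 below and 731.1 above in Batch 1, where 1 cell was above, and 59.9 below and 104.2 and 140.4 above in Batch 2. The cells at or above 100 are called Scgb1a1-high ciliary cells and the others Scgb1a1-low ciliary cells. They were compared with secretory airway cells (Scgb1a1 at least 100 per 10000, under 2 rule UMIs, 6 and 50 cells), with Sftpc-rich cells (238 and 986) and with the other lung cells (2031 and 4168).

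**Figure D1:**
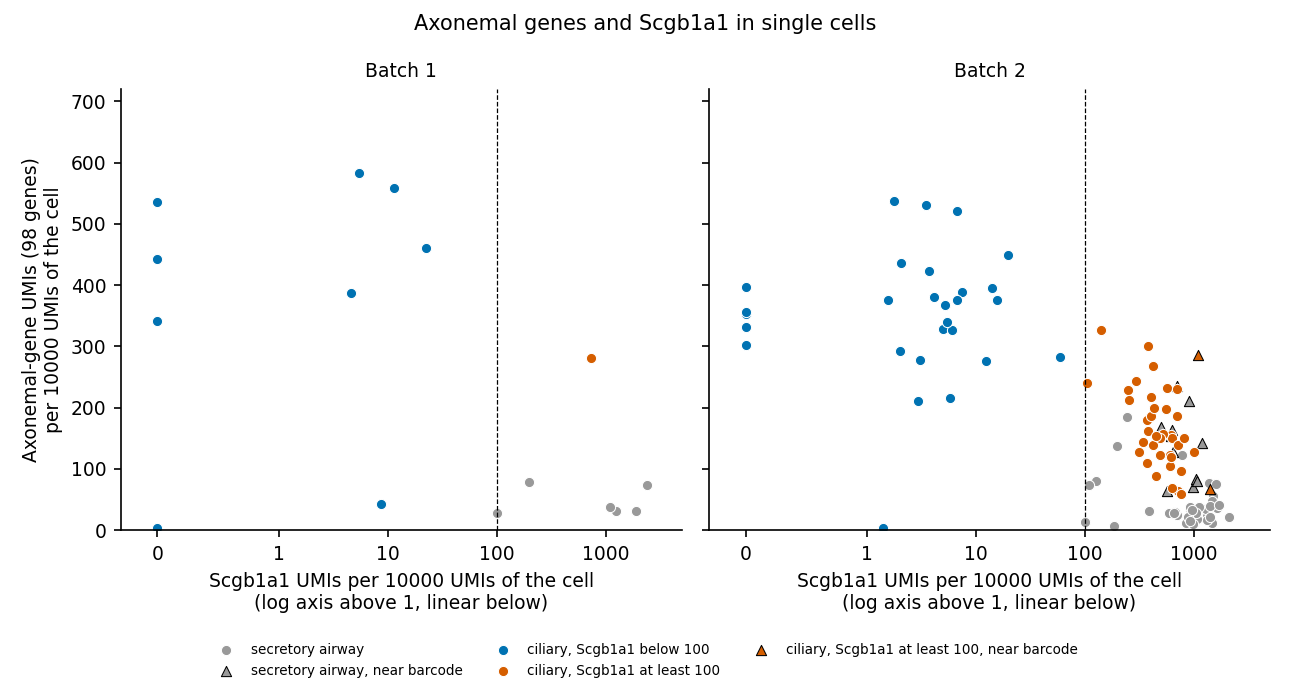
Each point is 1 cell of Batch 1 (left) or Batch 2 (right), with Scgb1a1 UMIs per 10000 on the horizontal axis and UMIs of 98 axonemal genes per 10000 on the vertical axis, blue and orange for ciliary cells below and at or above 100 (dashed line), grey for secretory airway cells, triangles for cells whose barcode lies 1 base from a much larger cell. In Batch 2 the 39 Scgb1a1-high cells lie between 59.2 and 326.6 axonemal UMIs per 10000, and 27 of the 28 Scgb1a1-low cells lie above 100.

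Depth set the Scgb1a1-high cells of Batch 2 apart. Their median was 23178 UMIs (701 to 114913), against 4928.5 in Scgb1a1-low ciliary cells, 3000.5 in secretory airway cells and 2014 in all cells of that batch. Adding up the medians of Scgb1a1-low ciliary and secretory cells and dividing gave a ratio of 2.92, and 21 of the 63 Batch 2 cells with at least 20000 UMIs were Scgb1a1-high ciliary cells. They held 1210135 of the 1401565 UMIs of Batch 2 ciliary cells. The single Scgb1a1-high cell of Batch 1 had 11052 UMIs, against medians of 3006 and 2019. The rule counts UMIs and not a share, so a deep cell reaches 2 rule UMIs more easily than a shallow one. In Batch 2 the median was 7.13 rule UMIs per 10000 in Scgb1a1-high and 16.3 in Scgb1a1-low ciliary cells. The depth gap to secretory cells can thus in part follow from the class cut, and how much was not tested.

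No barcode was shared between the batches. In Batch 2, 2 of 39 Scgb1a1-high ciliary cells (701 and 900 UMIs) and 11 of 50 secretory airway cells (653 to 2420 UMIs) had a barcode 1 base away from a cell of at least 10 times their UMIs, and every such neighbour was a ciliary cell, 4 different ones for the secretory cells (57589 to 114913 UMIs). No Scgb1a1-low ciliary, Sftpc-rich or other lung cell, and no cell of Batch 1, had such a barcode. Of the 1940 Batch 2 cells above the mitochondrial limit, 6 had one, and the neighbour was a ciliary cell for 4 of these 6. The 11 secretory cells held a median of 142.5 axonemal UMIs per 10000, against 29.3 in the other 39 secretory cells of that batch, and without them the secretory sum fell from 34.6 to 30.3 per 10000. Whether these barcodes came from the same beads as their neighbours was not tested. Counts of genes called against secretory cells are given with and without them, and genes whose fold moved by over 1.5 times are given below. Of 62 genes named against secretory cells, 19 moved by that much without them, all 19 upwards, and all 62 kept their direction and side of the threshold.

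**Figure D2:**
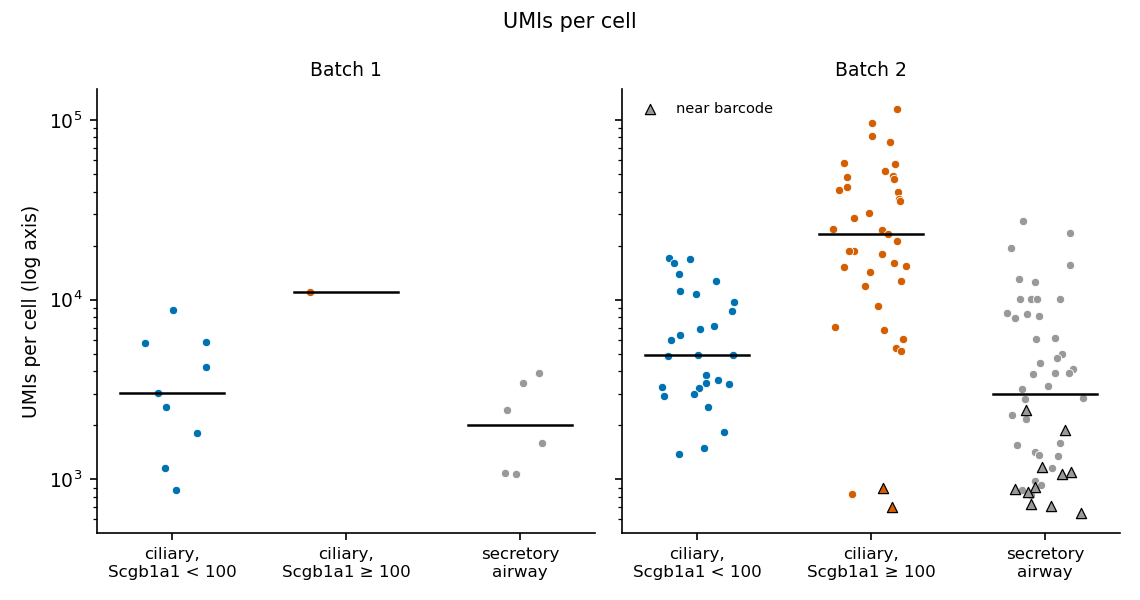
UMIs per cell on a log axis for Scgb1a1-low ciliary, Scgb1a1-high ciliary and secretory airway cells of Batch 1 (left) and Batch 2 (right), with black lines at the medians and triangles for cells with a barcode 1 base from a cell of at least 10 times their UMIs. In Batch 2 the Scgb1a1-high median of 23178 stands above 4928.5 and 3000.5, and the triangles lie at the low end.

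Ciliary cells made up 0.419% (0.201 to 0.769%) of the cells of Batch 1 and 1.19% (0.926 to 1.51%) of those of Batch 2. When each cell was thinned to 1000 UMIs and shallower cells were left out, the shares were 0.322% (6 of 1861) and 0.357% (18 of 5035), so at matched depth the batches differed by less than counting error. The Scgb1a1-high share after thinning was 0 of 6 in Batch 1 and 5 of 18 (27.8%) in Batch 2. With 1 mouse per batch these shares carry no test between animals, and all intervals cover counting error only.

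Scgb1a1-high ciliary cells carried the axonemal programme at a lower level per transcript than Scgb1a1-low cells, and the secretory programme at a level between Scgb1a1-low ciliary and secretory cells in Batch 2. Scgb1a1 defined the split, and since the secretory genes and the ciliary lists were measured in the same cells, the values below are a description without a test. In Batch 1 the 98 axonemal genes summed to 386.6 UMIs per 10000 in Scgb1a1-low cells (cells from 3.94 to 582.4), 281.4 in the Scgb1a1-high cell and 50.2 in secretory cells. In Batch 2 they summed to 350.3 (4.22 to 536.9), 151.5 (59.2 to 326.6) and 34.6. The ratio of Scgb1a1-high to Scgb1a1-low was 0.728 (Poisson interval 0.641 to 0.824) in Batch 1 and 0.432 (0.42 to 0.445) in Batch 2. In the sums over both batches all 6 component lists were lower in the Scgb1a1-high cells, at ratios from 0.396 for radial spokes and nexin-dynein links to 0.46 for other ciliated cell genes. In Batch 1, dynein assembly genes were at 13 in Scgb1a1-low cells and 19.9 in the Scgb1a1-high cell, a ratio of 1.53 (0.874 to 2.61) whose interval includes 1. Intraflagellar transport (0.494), centriole and basal body genes (0.565) and ciliogenesis regulators (0.584) had ratios nearer 1, and for the regulators the ratio was 0.97 when each cell counted equally.

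Single ciliary genes followed their lists in Batch 2. Foxj1 was at 1180.6 CPM (UMIs per 1e6 UMIs of the class) in Scgb1a1-low cells, 461.1 in Scgb1a1-high cells and 11.2 in secretory cells, where the class rule keeps it low. Dynlrb2, a dynein light chain, was at 2523.1, 905.7 and 71 CPM, and Tppp3, a tubulin-binding protein of the axoneme, at 1948.5, 614.8 and 56.1. Dynlrb2 and Tppp3, which no rule used, were thus lowest in secretory cells and highest in Scgb1a1-low ciliary cells. In Batch 1, Foxj1 was at 1004.0 CPM in Scgb1a1-low cells and 542.9 in the Scgb1a1-high cell, and had 0 UMIs in secretory cells. Sec14l3, a lipid transfer protein gene counted among the other ciliated cell genes, was shared with secretory cells, at 4022.4, 2719.5 and 2216.0 CPM in Batch 2, and made up 593 of the 925 axonemal UMIs of the secretory cells of that batch.

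The secretory programme ran the other way. The 26 secretory airway genes other than Scgb1a1 summed to 43.4 UMIs per 10000 in Scgb1a1-low cells, 284.6 in Scgb1a1-high cells and 486.6 in secretory cells of Batch 2. In Batch 1 they summed to 57, 971.8 and 720.3, so the only Scgb1a1-high cell of that batch stood above the secretory cells. The ratio of Scgb1a1-high to Scgb1a1-low was 6.56 in Batch 2 and 17.1 in Batch 1, the latter from 1 cell. Scgb3a2, a second club cell secretoglobin, was at 376.1, 9513.0 and 20396.5 CPM in Batch 2 and was found in 9 of 28, 39 of 39 and 49 of 50 cells. Cyp2f2, a cytochrome P450 of club cells, was at 41.8, 1406.5 and 2840.1 CPM. Cbr2, a carbonyl reductase, was at 856.7, 7862.8 and 12066.7 CPM. Aldh1a1, an aldehyde dehydrogenase of airway epithelium, differed less, at 898.5, 706.5 and 605.4 CPM, and was highest in Scgb1a1-low ciliary cells.

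**Figure D3:**
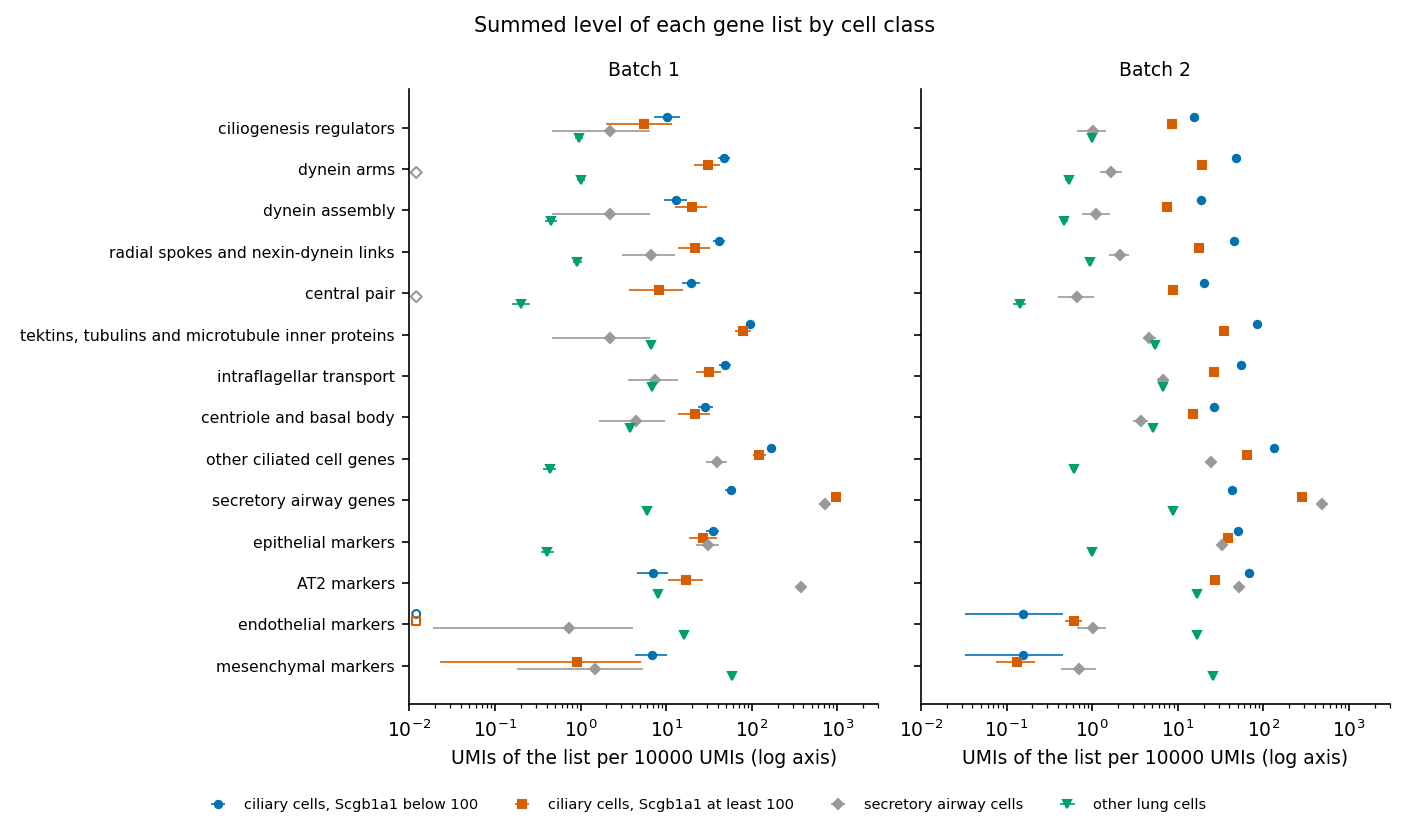
Summed UMIs of each gene list per 10000 UMIs (log axis) in Batch 1 (left) and Batch 2 (right), with exact Poisson 95% intervals, for Scgb1a1-low ciliary (blue), Scgb1a1-high ciliary (orange), secretory airway (grey) and other lung cells (green), open symbols at the left edge marking 0 UMIs. In Batch 2 the ciliary lists fall from blue to orange to grey, and the secretory airway genes rise from 43.4 to 284.6 to 486.6.

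Among the more abundant genes, the Scgb1a1-high cells of Batch 2 mostly lay between the other classes. The genes counted had at least 50 UMIs over Scgb1a1-low and Scgb1a1-high ciliary cells together and at least 200 CPM in either group. The level in secretory cells did not enter this choice. Of these 1105 genes, 902 (81.6%) had a Scgb1a1-high level between those of Scgb1a1-low ciliary and secretory cells. Scgb1a1, which cut the classes, was among them, and no share for comparison was computed. The median ratio of Scgb1a1-high to Scgb1a1-low over these genes was 0.817. Endothelial, mesenchymal and immune markers were near 0, with 74 endothelial, 16 mesenchymal and 10 immune marker UMIs among 1210135 in the Scgb1a1-high cells of Batch 2, and 15, 25 and 32 of the 39 cells had none of the respective list. Erythroid markers gave 920 UMIs (7.6 per 10000, against 20.2 in Scgb1a1-low cells), with 3 of 39 cells at 0. Alveolar type 1 markers gave 1349 UMIs (11.1 per 10000, against 3.03 in Scgb1a1-low and 14.6 in secretory cells) and alveolar type 2 markers 3333 (27.5, against 68.1 and 51.5). The order of the type 2 markers differed by cell, with medians of 20.3, against 7.49 and 33.7. Of the 1303 type 2 marker UMIs of Scgb1a1-low cells, 473 and 455 were Sftpc UMIs of single cells. In Batch 1 the sums were 7.09 in Scgb1a1-low cells and 17.2 in the Scgb1a1-high cell. The part of these markers in the results was not tested. No doublet caller was run, and whether a barcode with both programmes held 1 cell or more was not tested.

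Notch pathway genes were also compared. The 14 genes of the list summed to 10.7, 14.6 and 11.7 UMIs per 10000 in Scgb1a1-low, Scgb1a1-high and secretory cells of Batch 2, a ratio of Scgb1a1-high to Scgb1a1-low of 1.37 (1.18 to 1.59), and of 1.31 (0.608 to 2.67) in Batch 1. Hes1, a Notch target and repressor, was at 700.0 CPM in Scgb1a1-low cells, 1079.2 in Scgb1a1-high cells and 896.9 in secretory cells of Batch 2, and the ratio of Scgb1a1-high to Scgb1a1-low was 1.68 (1.42 to 2.01) over both batches. The receptor Notch1 was at 41.8, 86.8 and 71 CPM in Batch 2, a ratio over both batches of 1.63 (0.895 to 3.25), whose interval includes 1, and 0.766 in Batch 1. Nrarp, a Notch feedback regulator, had 0 UMIs in 28 Scgb1a1-low cells, 40 UMIs in 16 of 39 Scgb1a1-high cells and 9 UMIs in secretory cells of that batch. The ligand Jag1 was higher in Scgb1a1-low cells, at 188.1 CPM against 112.4 and 48.6. The ratio for Jag1 was 0.598 (0.411 to 0.889) in Batch 2.

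Krt15, a keratin of basal and some secretory airway cells, had 0 UMIs in the 37 Scgb1a1-low cells of both batches and 276 UMIs in 29 of 39 Scgb1a1-high cells of Batch 2 (228.1 CPM), close to 246.6 CPM in secretory cells. The defining basal cell genes Trp63, Krt5 and Ngfr had 0 UMIs in all ciliary cells, and Krt14 had 1. Sox2 was at 147.7 CPM in Scgb1a1-low cells of Batch 1 but 26.1 in Batch 2, where Scgb1a1-high cells had 85.9 and secretory cells 67.3. After thinning to 1000 UMIs, Sox2 was found in 1 of 28 Scgb1a1-low cells (3.57%) and 4 of 36 Scgb1a1-high cells (11.1%) of Batch 2, with 1 of 972 Sftpc-rich cells (0.103%) as background, and the exact intervals of the ciliary shares overlapped. The unthinned shares were 14.3% and 79.5%, at median depths of 4928.5 and 23178 UMIs.

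Ciliary cells were compared with each other class by summing UMIs per class and batch and fitting edgeR's quasi-likelihood model with batch as a block (10517 genes, Benjamini-Hochberg adjusted p under 0.05), after leaving out the 10 genes used to define classes. The sums of 1 mouse are the unit, so each comparison rests on 2 mice and 4 residual degrees of freedom over 5 classes, and because classes were cut from the same cells these tests describe the classes and do not define a cell type. Fold changes are ciliary over the other class. Of all genes tested, 1789 (17%) were called higher and 1538 (14.6%) lower than in the other lung cells.

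Against the other lung cells, the ciliary programme rose as a whole. All 8 tested central pair genes, all 15 radial spoke and nexin-dynein link genes, all 17 tektin and tubulin genes, all 9 dynein assembly genes and 22 of 22 other ciliated cell genes were called higher, with 17 of 18 dynein arm genes, 24 of 26 intraflagellar transport genes, 11 of 15 centriole genes and 10 of 12 regulators. Median log2 fold changes were 6.99, 6.21, 6.42, 5.04, 7.90, 4.65, 2.41, 1.89 and 4.75, against -0.07 over all genes. The genes not called were Dnah8, Ift52, Arl13b, Ofd1, Poc1b, Sass6, Cntrob, E2f4 and E2f5.

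The genes with the largest rises were Ccna1, Dynlrb2, Scgb3a2 and Sntn. Ccna1, cyclin A1, had 8 and 127 UMIs in ciliary cells of Batch 1 and Batch 2 and 1 and 1 in other lung cells, a log2 fold change of 9.02 ± 0.76 (SE, adjusted p = 3.8e-30). Dynlrb2 had 111 and 1579 against 4 and 43 (8.99 ± 0.64, adjusted p = 8.9e-42), and Sntn, sentan of the ciliary tip, 17 and 125 against 0 and 4 (8.65 ± 0.67, adjusted p = 5.4e-36). Dynlrb2 also had a UMI in 10 of 50 secretory cells (20%) and 75 of 986 Sftpc-rich cells (7.61%) of Batch 2. Scgb3a2 had 803 and 11584 UMIs against 48 and 467 (8.73 ± 0.91, adjusted p = 4.5e-20), of which 1 and 72 came from Scgb1a1-low cells. Rnf186, Ccdc153, 1600029I14Rik and Fam183b completed the 8 largest, with log2 fold changes of 8.64, 8.47, 8.31 and 8.25.

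Housekeeping tubulin and transport genes showed smaller differences. Tuba1a, an alpha tubulin, was at 1558.5 and 759.9 CPM in ciliary cells and 477.1 and 385.9 in other lung cells (1.16 ± 0.47, adjusted p = 0.0445). Ift20, which carries cargo from the Golgi to the cilium, was at 334.0 and 415.3 against 133.5 and 117.3 CPM (1.52 ± 0.46, adjusted p = 0.00406), while Traf3ip1 (IFT54) rose by 4.80 ± 0.47 (adjusted p = 9.7e-23). Other lung cells carry primary cilia as well, and these values are levels per UMI, not per cilium.

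Airway and lung epithelial transcription factors were called higher in 9 of 11 genes (median 4.40), the exceptions being Creb3l1 and Tfcp2l1. Sox2 had 7 and 109 UMIs against 3 and 4 (7.28 ± 0.68, adjusted p = 1.1e-24), Foxa2 6 and 155 against 7 and 33 (5.30 ± 0.52, adjusted p = 2.3e-22), and Nkx2-1, the lung lineage factor, 5 and 364 against 20 and 122 (4.40 ± 0.55, adjusted p = 1.9e-14). All 8 epithelial markers were higher (median 5.60). Secretory airway genes were called higher in 18 of 19 (median 5.17, exception Scgb3a1). Without the Scgb1a1-high cells, 1266 of 8870 genes (14.3%) were called higher and 1515 (17.1%) lower, Selenbp1 turned direction (-0.85) and 11 of 15 tested secretory airway genes were then called higher, with a median of 2.49.

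Genes of other compartments fell. All 5 endothelial, all 5 mesenchymal, all 5 immune and all 4 erythroid markers were called lower, with medians of -6.38, -5.76, -6.41 and -2.04. Cldn5, an endothelial claudin, had 0 and 3 UMIs in ciliary cells against 2792 and 5628 (log2 fold change -7.59 ± 0.75, adjusted p = 6.3e-22). Col1a2, a collagen of fibroblasts, had 10 and 9 against 7989 and 12334 (-5.76 ± 0.67, adjusted p = 4.1e-16), and the 10 UMIs of Batch 1 came from the single cell without the ciliary programme. Emcn, Alox5ap, Gucy1a3 and Tmem204 had 0 UMIs in ciliary cells, at least 78.5-fold, 55.6-fold, 69.8-fold and 72.8-fold lower, set against a floor of 3 UMIs over the ciliary cells of both batches. Hip1 and Ccdc80 and the chemokine genes Ccl21a and Gm13304, whose near-identical copies make the split of reads uncertain, were the remaining largest falls, also at 0 UMIs. The VEGF receptor Kdr was the mildest endothelial gene, with 0 and 61 UMIs in ciliary cells and -1.25 ± 0.45 (adjusted p = 0.0197).

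The erythroid markers moved with the batch rather than only with the class. They summed to 743.0 UMIs per 10000 in ciliary cells of Batch 1 (88.7 to 3050.1) and 9.32 in Batch 2 (0 to 174.1), against 771.8 and 239.8 in other lung cells. Every Batch 1 class held them at 88.7 or more per 10000.

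Few Notch and cell cycle genes were called higher than in the other lung cells, and more were called lower, beside 14.6% lower of all genes. Of 14 Notch genes, Jag1 was called higher (1.87 ± 0.47, adjusted p = 0.000366), and Dll1, Dll4, Hey1 and Heyl were called lower. Hes1 had a log2 fold change of 1.21 ± 0.51 (adjusted p = 0.0542), and Notch1 -0.06 ± 0.44 (adjusted p = 0.947). Of 14 cell cycle genes, Top2a, a topoisomerase of dividing cells, was called higher (4 and 375 UMIs, 1.66 ± 0.45, adjusted p = 0.00105), and Mki67, Birc5, Ube2c, Cenpa and Mcm3 were called lower. Cenpf, a kinetochore gene, differed by -0.02 ± 0.47 (adjusted p = 0.986).

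Against Sftpc-rich cells, a large epithelial class, 1206 genes (11.5%) were called higher and 789 (7.5%) lower, and without the batch block 831 (7.9%) and 306 (2.91%) were called. All 7 tested alveolar type 2 markers were lower (median -5.22, against -0.14 over all genes). Sftpa1, a surfactant collectin, was at 22.3 and 203.3 CPM in ciliary cells and 8488.1 and 6001.3 in Sftpc-rich cells (-6.16 ± 0.75, adjusted p = 1.8e-14), and Slc34a2, a phosphate transporter, at 22.3 and 104.9 against 4033.9 and 4517.3 (-6.33 ± 0.74, adjusted p = 6.8e-16). Sftpd, which airway cells also make, differed less (-2.97 ± 0.63, adjusted p = 4.0e-05). The ciliary lists were called nearly as against the other lung cells, with 17 of 18 dynein arm, 15 of 15 radial spoke, 8 of 8 central pair, 17 of 17 tektin and tubulin and 23 of 26 intraflagellar transport genes higher. Of the epithelial markers only Krt8, a keratin of simple epithelia, was called higher (1.64 ± 0.51, adjusted p = 0.00941) among 8.

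Airway identity also set the ciliary cells apart from Sftpc-rich cells. Sox2 had 7 and 109 UMIs in ciliary cells against 2 and 1 (6.89 ± 0.77, adjusted p = 3.2e-17), and was the only one of 11 epithelial transcription factors called higher, whereas Nkx2-1 and Tfcp2l1 were called lower. Scgb3a2 had 803 and 11584 against 10 and 164 UMIs (8.72 ± 0.92, adjusted p = 2.2e-19). Both classes expressed Sec14l3, at 5009.5 and 2897.5 CPM in ciliary cells and 312.4 and 319.7 in Sftpc-rich cells (3.08 ± 0.60, adjusted p = 5.9e-06).

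The comparison with secretory airway cells asked which genes differ between the main airway classes. Of all genes tested, 310 (2.95%) were called higher in ciliary cells and 19 (0.181%) lower, and 1288 had an unadjusted p under 0.05. The secretory sum of Batch 1 held 13549 UMIs in 6 cells, so a gene seen there once stands at 73.8 CPM, and Batch 2 held 267595 UMIs. Without the Scgb1a1-high cells, 534 of 8870 genes (6.02%) were called higher and 352 (3.97%) lower, and with the near barcodes also left out 944 of 8861 (10.7%) and 228 (2.57%). Leaving out the near barcodes alone gave 339 (3.2%) and 23 (0.217%) of 10578. Without the batch block 100 (0.951%) and 2 (0.019%) genes were called, and 42 genes were called lower without the ciliary cells that held at least 3 UMIs of endothelial, mesenchymal and immune markers, 15 of which were Scgb1a1-high cells of Batch 2 and 1 a cell of Batch 1, so that the Batch 2 sum went from 1401565 to 596033 UMIs.

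All structural lists of the cilium were higher in part or whole. Called higher were 8 of 8 central pair, 15 of 17 tektin and tubulin, 11 of 15 radial spoke, 8 of 18 dynein arm, 4 of 9 dynein assembly, 11 of 26 intraflagellar transport, 5 of 15 centriole and 17 of 22 other ciliated cell genes, and none was lower. Median log2 fold changes were 4.53, 4.23, 3.39, 3.66, 2.74, 2.27, 1.69 and 3.89 against 0.21 over all genes, and 2.99, 3.39, 2.83, 2.47, 2.74, 2.08, 1.69 and 3.82 when genes at 0 in a class were set to their bound. Without Scgb1a1-high cells and near barcodes the counts were 8 of 8, 16 of 17, 14 of 15, 15 of 17, 9 of 9, 20 of 26, 8 of 15 and 17 of 21.

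Dynein genes showed the size of the contrast. Dynlrb2 had 111 and 1579 UMIs in ciliary cells and 0 and 19 in secretory cells (4.39 ± 0.63, adjusted p = 1.5e-08). Dnah12, an inner arm heavy chain, had 8 and 297 against 0 and 4 (3.45 ± 0.73, adjusted p = 0.000324), and Dnah5, an outer arm heavy chain, 8 and 123 against 0 and 2 (3.40 ± 0.93, adjusted p = 0.013). The assembly factors Lrrc6 (14 and 208 against 0 and 3) and Zmynd10 (6 and 106 against 0 and 1) were called higher as well, at 3.83 ± 0.81 and 4.21 ± 1.14.

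The central apparatus and microtubule genes were the most uniform. Spag17, a central pair protein, had 23 and 523 UMIs against 0 and 6 (3.90 ± 0.68, adjusted p = 4.9e-06), and Ak7, an adenylate kinase of the axoneme, 11 and 210 against 0 and 1 (5.15 ± 0.99, adjusted p = 5.6e-05). Tppp3 had 98 and 1117 against 2 and 15 (3.62 ± 0.61, adjusted p = 2.0e-06). Tubb4b, a beta tubulin also used outside cilia, differed less, at 1447.2 and 729.9 CPM against 0 and 213.0 (2.10 ± 0.53, adjusted p = 0.00482). Rsph1, a radial spoke head protein, had 27 and 335 against 0 and 8 UMIs (3.13 ± 0.64, adjusted p = 0.000206), whereas Rsph3a, which shares reads with its near-identical copy Rsph3b, was not called (1.59 ± 0.64, adjusted p = 0.206).

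Transport and basal body genes were shared to a greater extent. Ift74 had 19 and 467 UMIs against 0 and 17 (2.23 ± 0.57, adjusted p = 0.00582), and Traf3ip1 24 and 440 against 0 and 7 (3.64 ± 0.67, adjusted p = 2.1e-05), but Ift20 was at 415.3 and 228.0 CPM in Batch 2 and was not called (0.65 ± 0.52, adjusted p = 0.705). The motor gene Kif3a was called in the joint fit (2.15 ± 0.67, adjusted p = 0.0456) but was at 89.1 CPM in ciliary and 147.6 CPM in secretory cells of Batch 1, the latter from 2 UMIs. Cetn2, a centrin of centrioles, had 39 and 496 against 2 and 18 UMIs (2.28 ± 0.56, adjusted p = 0.00342), and Pcm1, of centriolar satellites, 23 and 752 against 0 and 37 (2.03 ± 0.58, adjusted p = 0.0208).

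Of 12 tested ciliogenesis regulators, 4 were called higher. Myb had 16 and 317 UMIs against 0 and 3 (4.25 ± 0.78, adjusted p = 2.1e-05), Ccno (cyclin O) 2 and 179 against 0 and 3 (3.22 ± 0.87, adjusted p = 0.0109), Ccdc67, the deuterosome gene now called Deup1, 1 and 183 against 0 and 2 (3.63 ± 0.92, adjusted p = 0.00555), and Ccdc78 8 and 132 against 1 and 1 (3.48 ± 0.94, adjusted p = 0.0117). Mcidas had 0 and 103 UMIs against 1 and 0 and did not pass (3.73 ± 1.21, adjusted p = 0.0585). Batch 1 thus held 2 or fewer UMIs of Ccno, Ccdc67 and Mcidas in its ciliary cells.

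Genes at 0 UMIs in secretory cells led the list by size. Ccdc11 (14 and 231 UMIs in ciliary cells), Pifo (15 and 149), Ift46 (4 and 140), Cetn4 (21 and 112), Kif27 (7 and 118) and Efcab1 (14 and 106) were at least 15.9-fold, 10.6-fold, 9.33-fold, 8.62-fold, 8.1-fold and 7.77-fold higher, set against a floor of 3 UMIs over the secretory cells of both batches. The uncharacterised 1700001C02Rik and 6820408C15Rik were at least 8.49-fold and 8.03-fold higher. The first 6 encode or are related to ciliary and centriolar proteins.

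Without the near barcodes the folds of several genes were larger. Secretory UMIs over both batches went from 3 to 1 for Myb and for Ccno, and the log2 fold changes from 4.25 to 5.69 and from 3.22 to 4.65. Those of Lrrc6 (3 to 1 UMIs), Rsph1 (8 to 2), Spag17 (6 to 2), Traf3ip1 (7 to 3), Ccdc78 (2 to 1), Ift74 (17 to 10) and Top2a (9 to 5) became 5.27, 4.96, 5.33, 4.73, 4.36, 2.85 and 3.28. Ccdc67, Dnah12 and Zmynd10 went from 2, 4 and 1 UMIs to 0 and were then at least 11.4-fold, 18.9-fold and 6.94-fold higher. Foxj1, a gene of the rule, went from 3 UMIs to 1.

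Few genes were lower when all ciliary cells were used. Ccl20, an epithelial chemokine, and Gucy1a3, a guanylate cyclase subunit, had 0 UMIs in ciliary cells and 1 and 14 each in secretory cells, at least 25.7-fold lower. Sparcl1 had 5 and 2 against 5 and 23 UMIs (-4.12 ± 0.82, adjusted p = 0.000111), and Retnla, a resistin-like cytokine, 18 and 152 against 25 and 109 (-2.11 ± 0.50, adjusted p = 0.0022). Retnla was the only 1 of 19 tested secretory airway genes called lower. Scgb3a2 was at 17878.2 and 8265.0 CPM in ciliary and 39633.9 and 20396.5 CPM in secretory cells (-1.15 ± 0.66, adjusted p = 0.489), and Cyp2f2 at 712.5 and 1220.1 against 2583.2 and 2840.1 (-1.56 ± 0.54, adjusted p = 0.0945). With the Scgb1a1-high cells left out, 11 of 15 tested secretory genes were called lower, with a median of -3.05 against -0.00 over all genes. In that setting Scgb1a1 cut both classes, so lower levels of secretory genes can in part follow from the cut. How much was not tested.

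Surfactant collectins were lower too. Sftpa1 had 1 and 285 UMIs in ciliary cells against 45 and 93 (-3.19 ± 0.72, adjusted p = 0.00104), and Sftpd 14 and 1763 against 51 and 653 (-2.07 ± 0.62, adjusted p = 0.0322). The difference was larger in Batch 1, where Sftpc itself stood at 27677.3 CPM in the 6 secretory cells and 1457.4 CPM in those of Batch 2. The part of Sftpc-bearing cells in this result was not tested.

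No epithelial transcription factor, Notch gene or epithelial marker was called between ciliary and secretory cells by edgeR (0 of 11, 0 of 14 and 0 of 8) or by DESeq2. Over all 10517 genes tested, edgeR called 2.95% higher and 0.181% lower, so 0 calls in lists this short says little. At an unadjusted p under 0.05, edgeR gave 2, 4 and 0 genes of these lists and DESeq2 1, 2 and 1. Over all 10517 genes these counts were 1288 and 1006. These fits used all ciliary cells, and Scgb1a1-high cells gave 1210135 of the 1401565 ciliary UMIs of Batch 2. Sox2 differed by 0.23 ± 0.61 (adjusted p = 0.945), Nkx2-1 by 0.18 ± 0.57 (adjusted p = 0.961), Hes1 by -0.17 ± 0.53 (adjusted p = 0.958) and Jag1 by 1.41 ± 0.64 (adjusted p = 0.309). Of 14 cell cycle genes, Top2a (4 and 375 against 0 and 9 UMIs, 2.57 ± 0.66, adjusted p = 0.00595) and Cenpf (0 and 78 against 0 and 0 UMIs, at least 5.05-fold higher) were called higher, and Ccnd1, cyclin D1, lower (2 and 111 against 7 and 49 UMIs, -1.68 ± 0.49, adjusted p = 0.0247).

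**Figure D4:**
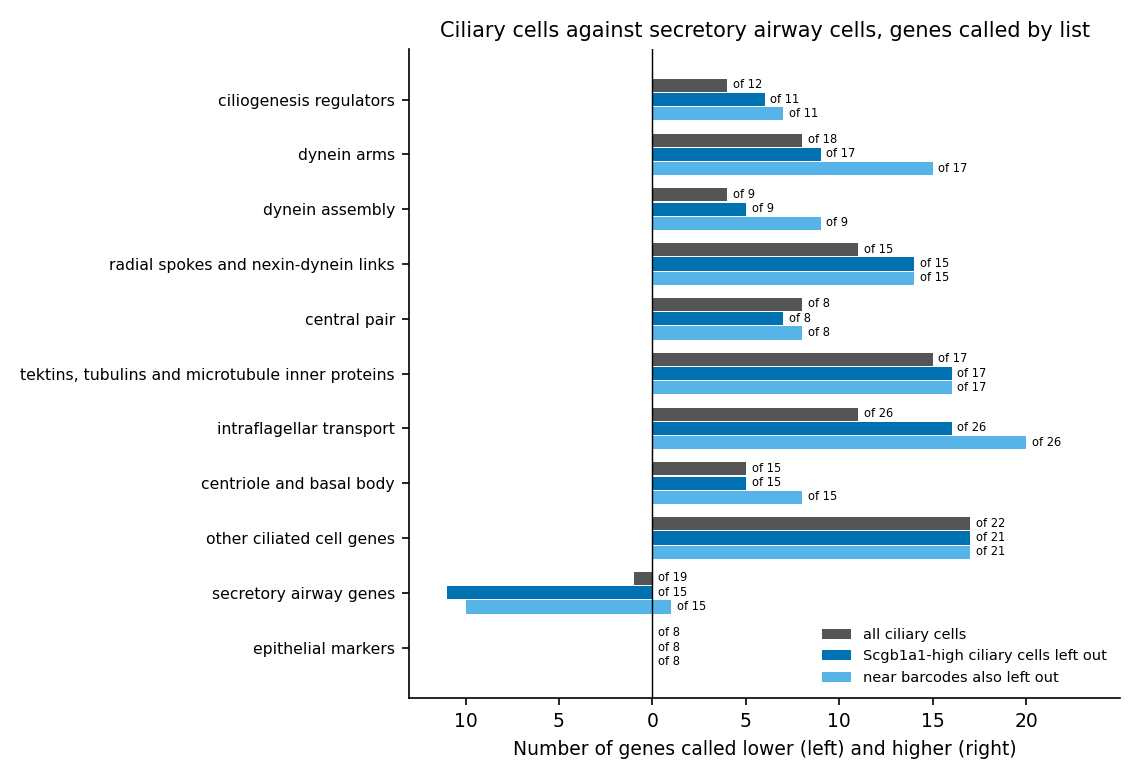
Number of genes of each list called higher (right) or lower (left) in ciliary cells than in secretory airway cells by edgeR, with the number tested beside each bar, for all ciliary cells (dark grey), without Scgb1a1-high cells (blue) and with near barcodes also left out (light blue). Ciliary lists reach the right in all 3 settings, and secretory airway genes go from 1 to 11 to 10 called lower. Without Scgb1a1-high cells, Scgb1a1 cut both classes.

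Promoters were read from RefSeq for GRCm38.p6, 250 bases before to 50 bases after each start, and are shown because members of the ciliary lists rose together. RFX transcription factors of ciliated cells are known to bind the X-box, whose arms read GTTGCC and, on the other strand, GGCAAC. These letters were found on either strand in 12.5% of 32851 promoters of all genes and 13.3% of the promoters of tested genes. They were in 34 of 77 promoters (44.2%) of the 69 axonemal genes with a sequence, 11 of 22 (50%) of intraflagellar transport genes, 90 of 283 (31.8%) of genes called higher than in secretory cells, and 1 of 21 (4.76%) of secretory airway genes. The forkhead letters TGTTTAC or GTAAACA were in 3.65% of all promoters and 2.48% of those of tested genes. For axonemal genes they were in 4 of 77 promoters (5.19%), and for genes called higher than in secretory cells in 9 of 283 (3.18%). Intraflagellar transport genes had 0 of 22 and secretory airway genes 0 of 21. A match is a description of the letters and not a binding site, and no match says only that the letters are not in this window.

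The promoters of 4 genes follow, with the X-box letters in capitals, and only promoters that hold these letters are shown. The genes are an outer arm chain of the rule, the dynein light chain with the most UMIs, a tektin and a coiled-coil gene of the ciliary lists. The promoters are as follows. They lie at chr11:114727169-114727468 (plus strand), chr8:116504765-116505064 (plus), chr11:72361833-72362132 (minus) and chr8:95533850-95534149 (plus), written 5′ to 3′ on the strand of the gene.
Dnaic2: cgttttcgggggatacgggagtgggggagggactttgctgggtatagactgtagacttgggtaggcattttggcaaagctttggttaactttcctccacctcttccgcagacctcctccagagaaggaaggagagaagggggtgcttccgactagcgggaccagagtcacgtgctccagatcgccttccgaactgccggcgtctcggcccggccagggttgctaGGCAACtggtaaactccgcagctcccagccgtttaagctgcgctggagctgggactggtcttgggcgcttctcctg
Dynlrb2: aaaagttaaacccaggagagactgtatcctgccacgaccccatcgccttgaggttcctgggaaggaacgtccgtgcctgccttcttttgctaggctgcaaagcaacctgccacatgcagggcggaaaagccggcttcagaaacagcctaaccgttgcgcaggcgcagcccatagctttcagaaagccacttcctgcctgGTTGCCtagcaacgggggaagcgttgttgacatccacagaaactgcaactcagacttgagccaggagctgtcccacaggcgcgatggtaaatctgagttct
Tekt1: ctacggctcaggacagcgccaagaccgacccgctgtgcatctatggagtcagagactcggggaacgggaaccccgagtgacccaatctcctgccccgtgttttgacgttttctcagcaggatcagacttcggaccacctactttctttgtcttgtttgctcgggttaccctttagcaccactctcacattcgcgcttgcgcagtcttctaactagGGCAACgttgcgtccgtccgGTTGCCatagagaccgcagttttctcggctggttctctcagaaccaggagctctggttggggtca
Ccdc113: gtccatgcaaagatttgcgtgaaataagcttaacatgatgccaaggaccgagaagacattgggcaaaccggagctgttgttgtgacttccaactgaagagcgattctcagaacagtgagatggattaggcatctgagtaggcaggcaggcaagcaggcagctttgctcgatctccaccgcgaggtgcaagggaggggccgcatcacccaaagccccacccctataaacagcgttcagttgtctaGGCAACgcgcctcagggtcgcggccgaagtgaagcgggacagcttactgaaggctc
Counted from the start site, the letters begin at -26 in Dnaic2, -51 in Dynlrb2, -35 and -15 in Tekt1 and -6 in Ccdc113. Further matches began at -152 in Ccdc153, -219 in Ccno and -195 in Mcidas. The promoters read for Dnali1, Sox2, Ccdc39, Tmem212, Spag17 and Cyp2f2, and another start of Tekt1, held no match.

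Deuterosome genes marked a subset of the ciliary cells of Batch 2. The group Ccno, Ccdc67, Cdc20b, Mcidas and Foxn4 was put together after its values were seen, and is given without a test. At least 5 UMIs of it were found in 20 of 67 cells (17 Scgb1a1-high and 3 Scgb1a1-low), which held 508 of the 551 UMIs (92.2%). In Batch 1 the 10 ciliary cells held 3 such UMIs and no cell reached 5. The 20 cells were deep, with a median of 26626 UMIs against 6766 in the other 47, and the part of depth in this split was not tested.

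Per UMI, the deuterosome cells also held more cell cycle transcripts. The cell cycle list summed to 8.59 UMIs per 10000 (7.94 to 9.28) in the 20 cells and 2.75 (2.36 to 3.18) in the other 47, Top2a to 4.23 and 0.9, and Plk4, the kinase that starts centriole formation, to 0.737 and 0.0763. Myb was at 2.69 (2.33 to 3.09) and 1.77 (1.46 to 2.12). Axonemal genes were at 176.7 (173.7 to 179.7) and 180.8 (177.6 to 184.1) and Foxj1 at 5.64 (5.12 to 6.21) and 5.54 (4.98 to 6.14), so the Foxj1 intervals overlapped. Scgb1a1 was at 371.7 in the 20 cells and 467.2 in the others. Of the 20 cells, 17 were Scgb1a1-high and 3 Scgb1a1-low, and of the other 47 cells 22 and 25. Axonemal, Foxj1 and Scgb1a1 levels differed between Scgb1a1-high and Scgb1a1-low cells, so these sums mix the split with that make-up. The split was not compared within Scgb1a1-high or Scgb1a1-low cells alone.

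**Figure D5:**
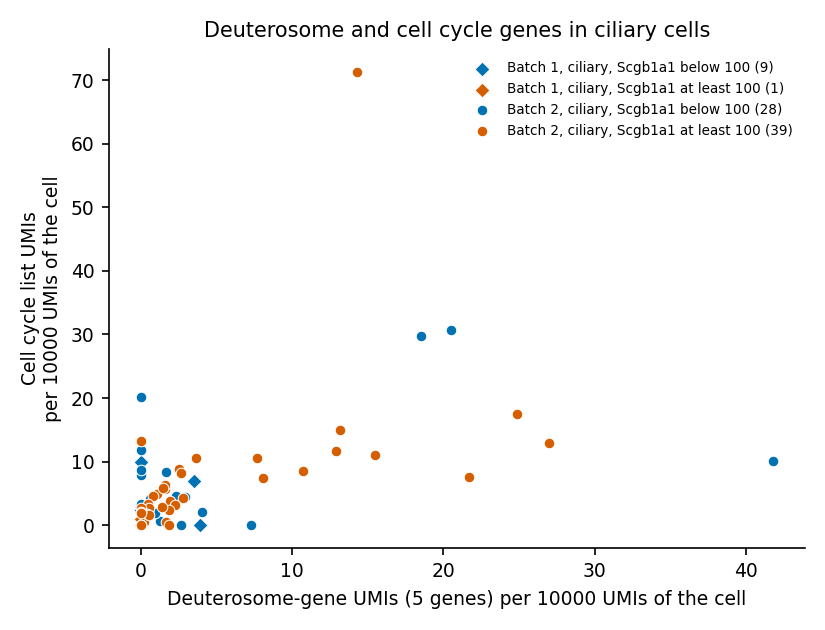
Each point is 1 ciliary cell, with UMIs of 5 deuterosome genes per 10000 on the horizontal axis and UMIs of the cell cycle list per 10000 on the vertical axis, diamonds for Batch 1 and circles for Batch 2, blue for Scgb1a1-low and orange for Scgb1a1-high cells. Most cells lie near the origin, and the cells with the most deuterosome UMIs, up to 41.8 per 10000, also hold cell cycle UMIs. The point at 71.3 on the vertical axis is a near-barcode cell of 701 UMIs with 5 cell cycle UMIs.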

How the data were processed

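Whole lungs of 2 mice at postnatal day 1 were profiled by Drop-seq, 1 library per mouse (Batch 1 and Batch 2). The UMI counts per gene and cell were deposited by the authors as 1 table per batch, made with the Drop-seq tools from exon reads, and the submitters' processing notes name Bowtie2 2.2.7 and mm10. The summed UMIs of the cells used were 4432553 in Batch 1 and 18232639 in Batch 2, and no column of another sample was used. Doublets were neither called nor removed.

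Cells with over 10% mitochondrial UMIs were left out, and classes were cut from UMIs: ciliary cells (at least 2 UMIs over 5 genes), then secretory airway (Scgb1a1 at least 100 per 10000), Sftpc-rich (Sftpc at least 300 per 10000), AT1-marker-rich (Ager, Hopx and Aqp5 at least 30 per 10000 and 3 UMIs) and other lung cells. The members and gene lists were chosen with earlier results of these data known. UMIs were summed per class and batch (10 sums), 10527 genes passed filterByExpr, and edgeR 4.0.16 (R 4.3.3, TMM, quasi-likelihood test, Benjamini-Hochberg threshold 0.05) was fitted to all classes with batch as a block, leaving 4 residual degrees of freedom. The 10 genes of the class rules were left out of counts. Sums of a batch come from the same mouse, and their deviations from class means had a median correlation of 0.153 (lowest 0.0926). Alternatives were DESeq2 1.42.0, other scaling, filters, cell cuts and leaving out each batch, and cells with a near barcode were left out as an alternative chosen after seeing the data. The fit was also run on simulated counts without a batch effect or correlation within a mouse, so that run does not cover these features.

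Named were the rule genes, Scgb1a1 and Sox2, the 2 to 6 genes of each list with the most ciliary UMIs, and the 8 largest folds in each direction against secretory and other lung cells among called genes with at least 50 CPM in the higher class and the same direction in both batches. Genes named as called or not called in a list's count, Nrarp, Plk4 and the deuterosome group were chosen after their values were seen. Log2 CPM differences within a single batch use a prior count of 2, and the other log2 folds are those of the edgeR fit. The values after ±, called SE, were derived from the test, as the absolute log2 fold over the square root of its F statistic. Intervals are exact (Poisson or Clopper-Pearson, 95%) and cover counting error only. Coordinates are GRCm38, and promoters are RefSeq GRCm38.p6. Python 3.11.15, numpy 2.4.6, scipy 1.17.1 and pandas 2.3.3 were used.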

Additional observations from a re-analysis of the deposited data

Results flagged for a closer look

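Cells above the mitochondrial limit entered no comparison, and some met the ciliary rule. Of 1940 Batch 2 cells over the limit, 21 did (1.08%, exact binomial 95% interval 0.671 to 1.65%). A count of 0 would allow up to 0.155%. On the axonemal genes, which the rule did not use, the 21 cells held 229.2 UMIs per 10000, against 10 in the other cells over the limit. Their mitochondrial share was 10.5 to 20.5% and their median 3303 UMIs (1322 to 17993). Of the 21 cells, 5 had Scgb1a1 at or above 100 per 10000 and 1 had a near barcode.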

How the results depend on the processing

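With 2 mice, 77 ciliary cells and 13549 UMIs in the secretory sum of Batch 1, the comparison with secretory cells depended most on the settings. Main counts were 310 higher and 19 lower. They became 161 and 6 by DESeq2 (3468 adjusted p-values were not given), 131 and 7 with at most 5% mitochondrial UMIs, 534 and 352 without Scgb1a1-high cells, and 944 and 228 with near barcodes also left out. The lower count was 34 with only the 2 classes fitted and 42 without 15 Scgb1a1-high cells and 1 other cell that held UMIs of other lineages. Of the called genes 94.2% were higher, and 60.3% without Scgb1a1-high cells. Against Sftpc-rich cells DESeq2 called 481 genes lower, with a shift of 0.11 (log2) in the median of all genes. The causes were not tested.

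Without the batch as a replicate block, 100 genes were called higher and 2 lower than in secretory cells and 306 lower than in Sftpc-rich cells. Of the named genes, 22 lost their call against secretory cells, 2 against Sftpc-rich cells and 4 against other lung cells.

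With 1 batch left out each class had 1 sum and no residual degrees of freedom, so no test was run, and called genes that kept their sign numbered 302 to 310 higher and 14 to 18 lower (secretory), 1105 to 1206 and 738 to 789 (Sftpc-rich), and 1490 to 1789 and 1473 to 1538 (other). Left with Batch 2 or Batch 1 alone, Kif3a against secretory cells was at 3.06 and -0.72, and against other lung cells Mcidas was at 6.40 and -1.0 and Krt15 at 6.97 and -0.41. Without Scgb1a1-high cells, against other lung cells, Selenbp1 was at -0.85 and Krt15 at -3.47, and with near barcodes also left out at -0.64 and -3.55.

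Ciliary shares were 1.34% and 2.21% at 1 rule UMI or more, and 0.357% in Batch 2 after thinning. The Scgb1a1-high share of Batch 2 was 34.7% and 27.8% in these settings, and 0 in Batch 1 after thinning. The Scgb1a1-high to Scgb1a1-low ratio of axonemal genes was 0.476 as a mean over cells, 0.411 at 3 rule UMIs or more and 0.432 to 0.728 by batch. By batch it was 6.56 to 17.1 for secretory genes, 0.525 to 0.557 for regulators (0.97 as a mean over cells), 1.54 to 2.45 for Hes1 (2.11 as a mean over cells) and 1.23 to 3.29 for Sox2.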
